A study of Homo sapiens with 9 samples.

Results

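The 3 shSCR libraries describe MCF10A breast epithelial cells that carry ectopic MYC and mutant PI3K before any targeted knockdown, and they were chosen by their scrambled-hairpin label alone, as 3 of the 9 libraries of the series. MCF10A is an immortalised, non-tumorigenic line of human mammary epithelial cells. All 3 cultures held the plasmids pBABE-hygro-MYC, pMN-IRES-GFP-PI3KH1047R and pLKO-tetON-puro-shSCR, and all were given 2 µg/mL doxycycline for 72 hours to induce the scrambled hairpin. The other 6 libraries, with either of 2 hairpins against G9a, are not analysed here. The cells were grown with horse serum, cholera toxin, epidermal growth factor (EGF), hydrocortisone and insulin, and RNA was taken from subconfluent cultures. The design text calls the replicates biological. No culture without ectopic MYC, without mutant PI3K or without doxycycline was used here, so the levels below belong to that combination and cannot be assigned to any of its components.

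The mammary duct has an outer basal or myoepithelial layer, marked by keratins 5 and 14, the transcription factor p63 and laminin-binding integrins, and an inner luminal layer, marked by keratins 8, 18 and 19 and, in part of its cells, by hormone receptors. MYC is a transcription factor that pairs with MAX and binds E-box sequences, and it is known for driving growth and cell division. PI3K makes the membrane lipid that activates AKT and mTOR, and the H1047R form of its catalytic subunit is a common activating mutation of breast cancers.

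Levels are given as reads per 1000000 reads in genes (CPM), and levels of different genes are compared per kilobase of exon (CPM per kb), except where an order or a share by CPM, which grows with gene length, is named as such. A gene was called expressed at 1 CPM or more in all 3 libraries and silent under 0.1 CPM in all 3, and a gene in between was called low. The libraries held 64478683, 76698004 and 53065611 reads in genes, so that 1 CPM stood for 53.1 to 76.7 reads and the limit that a count of 0 allows, 3 reads, lay at 0.0391 to 0.0565 CPM. Such limits cover counting error only. With 1 group of 3 libraries no test between groups was made. Orders between genes are given as overlap of the ranges of the 3 libraries or, where stated, library by library. Of 19596 protein-coding genes, 11229 were expressed, which is 57.3%, and 6003 were silent, which is 30.6%, among them 3631 with no read in any library. Between pairs of libraries, 0.652 to 0.962% of the 12574 expressed genes of all kinds differed at least 2-fold.

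Basal genes were widely expressed, beside the luminal keratins and mesenchymal genes given below. Of 28 basal and myoepithelial genes, 26 were expressed, against 57.3% of all protein-coding genes, and the smooth muscle gene CNN1 and the nerve growth factor receptor NGFR were silent. KRT5, a keratin of basal cells (ENSG00000186081.11), stood at 2440.0, 1849 and 2819 CPM in replicates 1, 2 and 3, and averaged 552 ± 114 CPM per kb (SD, n = 3). Replicate 3 held the most KRT5 and replicate 2 the least. KRT6A, a keratin of activated keratinocytes, averaged 544 ± 107 CPM per kb, and its range overlapped that of KRT5. KRT14, the usual partner of KRT5, was lower, at 32.8, 19.9 and 48.4 CPM, and the order of the libraries was that of KRT5. KRT6A, KRT6B and KRT6C, and likewise KRT14, KRT16 and KRT17, are close copies whose reads could be split between them, so single values within these groups are uncertain.

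TP63, which encodes p63 (ENSG00000073282.12), was expressed at a low level, at 3.69, 2.33 and 6.56 CPM, or 238, 179 and 348 reads. Its mean of 0.563 CPM per kb lay below those of the luminal transcription factors GATA3 and FOXA1, at 1.15 and 1.03 CPM per kb. TP63 was highest in replicate 3 and lowest in replicate 2. The adhesion genes of basal cells were high: the laminin chain LAMB3 stood at 524, 780 and 598 CPM, highest in replicate 2 and lowest in replicate 1. LAMA3, another laminin chain of basal cells, stood at 174, 232 and 281 CPM. ITGA6, an integrin that binds laminins, stood at 341, 289 and 410 CPM and its partner ITGB4 at 65.9, 50.8 and 95.2 CPM. Both integrins were highest in replicate 3.

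Luminal genes were divided. Of 24 matched, 10 were expressed, 6 low and 8 silent, against 57.3% expressed and 30.6% silent among all protein-coding genes. The simple epithelial keratins KRT7 and KRT18 led the list per kilobase, with 281 ± 61.0 and 79.0 CPM per kb, and XBP1, a factor of secretory cells, had 42.4 CPM per kb. KRT8, the partner of KRT18, had 25.2 CPM per kb. KRT7 stood at 866, 1255 and 1332 CPM, lowest in replicate 1. KRT19, in contrast, stood at 0.0155, 0.0782 and 0.0377 CPM and was silent in all 3 libraries. The luminal transcription factors GATA3 and FOXA1 were expressed at low levels, with 4.36, 3.49 and 4.01 CPM for GATA3 and 3.77, 4.09 and 4.47 CPM for FOXA1. Of the steroid hormone receptors that mark luminal cells, ESR1, the oestrogen receptor, stood at 0.140, 0.130 and 0.302 CPM, and PGR, the progesterone receptor, had reads in replicate 2 alone, at 0.0130 CPM. In such bulk samples, fewer cells of a type and less RNA per cell cannot be told apart. TFF1 and TFF3, secreted luminal peptides, and the tight junction gene CLDN3 had no read in any library.

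**Figure D1:**
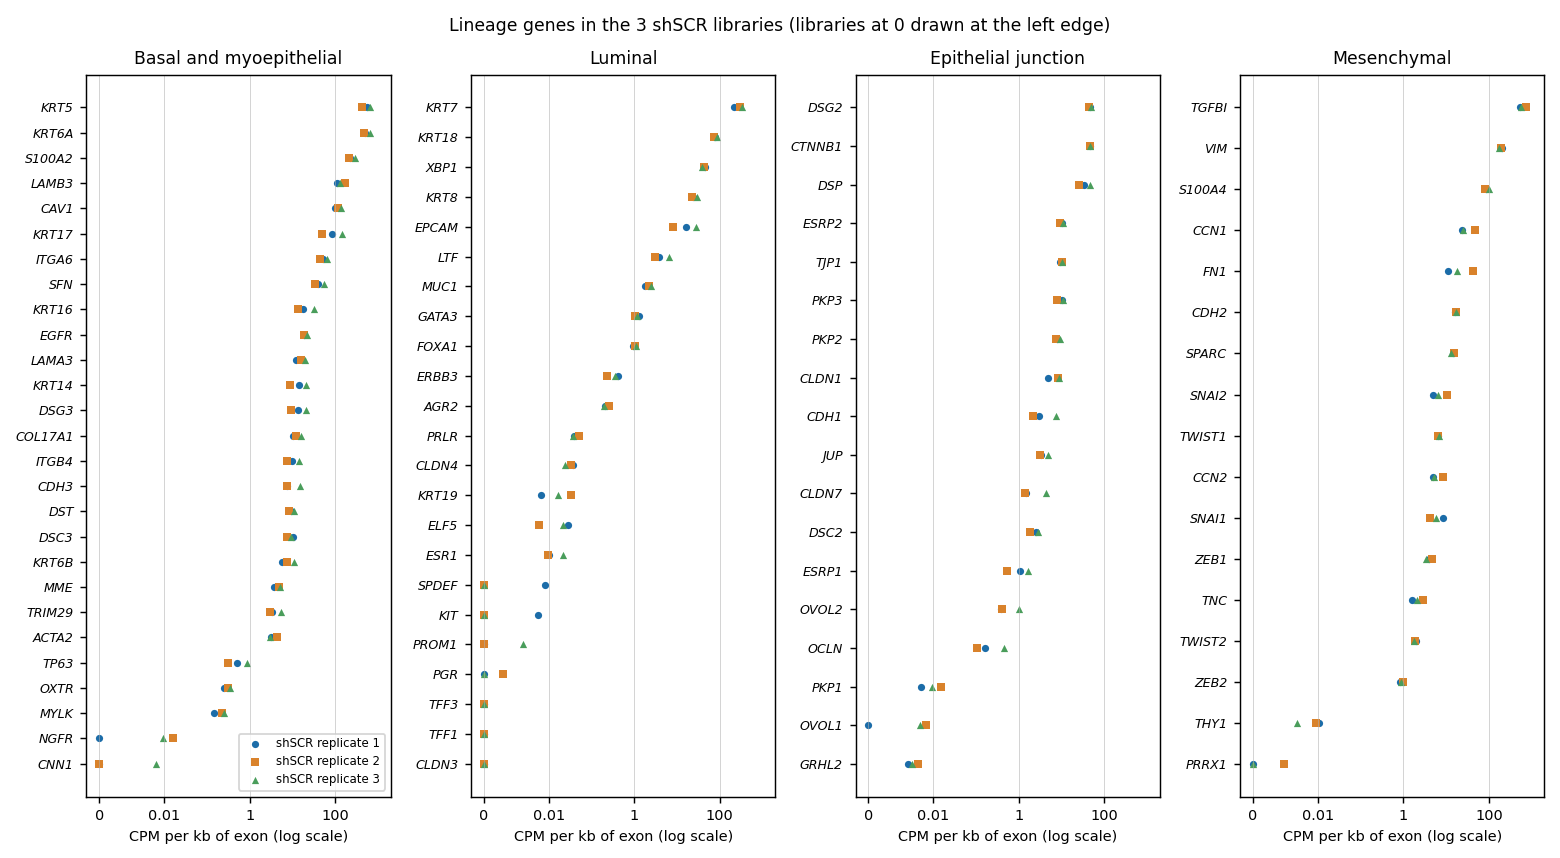
Level of basal (27 drawn), luminal (23), epithelial junction (18) and mesenchymal (17) genes in CPM per kb of exon, on a log axis, with a point for each of the 3 shSCR libraries and values of 0 at the left edge. KRT5 at 552 and TGFBI at 606 CPM per kb lead the basal and the mesenchymal panel, while the lower part of the luminal panel runs down to genes with no read.

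Keratins as a family were taken from their symbols. Of 55 keratin genes, 15 were expressed and 35 silent, against 57.3% and 30.6% of all protein-coding genes. By reads, with no correction for length, KRT5 held 34.3% of the summed CPM of those 15, KRT6A 23.1%, KRT7 16.7% and KRT81 13.3%. KRT81, a type II keratin known from hair, stood at 711, 1058 and 995 CPM, or 477 CPM per kb, and its range overlapped that of KRT6A. It has near-identical copies, among them KRT86, which stood at 6.23, 9.95 and 8.35 CPM, and it was in none of the lineage lists, so it is named here after its values were seen. Of 17 epidermal differentiation genes, which mark the suprabasal and cornified layers of skin, 2 were expressed, KRT10 and TGM1, and 11 were silent, against the same 57.3% and 30.6%. KRT1, KRT2, KRT4 and CALML5 had no read.

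Epithelial junction genes were expressed in 13 of 18 cases, against 57.3% of all protein-coding genes. The desmosomal genes DSG2 and DSP and the catenin CTNNB1 had the highest levels per kb, at 46.3, 35.3 and 46.0 CPM per kb. CDH1, which encodes E-cadherin, stood at 18.6, 13.2 and 45.7 CPM. Replicate 3 lay well above the other two libraries. GRHL2, OVOL1 and PKP1 were silent, and OVOL2 and OCLN were low. GRHL2 and OVOL1 encode transcription factors of epithelial cells, and PKP1 encodes a plakophilin of stratified epithelia. GRHL2 stood at 0.0155, 0.0261 and 0.0188 CPM, which is below the level that 3 reads give in each library.

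Mesenchymal genes were expressed in 16 of 18 cases, against 57.3% of all protein-coding genes, beside the epithelial ones. TGFBI, a matrix protein induced by TGF-beta, stood at 4170, 5661 and 4370 CPM, and it was among the leading 4 nuclear protein-coding genes by mean CPM. VIM, which encodes vimentin, stood at 1058, 999 and 890 CPM. CDH2, which encodes N-cadherin, stood at 80.2, 83.9 and 83.5 CPM, and its levels per kb, 16.7 CPM per kb on average, were above those of CDH1 in every library. The transcription factors SNAI1, SNAI2, TWIST1, TWIST2, ZEB1 and ZEB2 were all expressed, from 0.908 CPM per kb for ZEB2 to 7.34 CPM per kb for SNAI2. THY1 and PRRX1 were silent.

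Matrix and adhesion families were likewise mixed. Of 12 laminin chain genes 10 were expressed, and of 44 collagen chain genes 17, against 57.3% of all protein-coding genes. The collagens with the highest levels per kb were COL12A1, COL17A1, the hemidesmosomal collagen of basal cells, and the basement membrane chain COL4A5, at 15.05, 12.7 and 11.1 CPM per kb. Among the fibrillar chains of connective tissue, COL5A2 stood at 12.9, 12.5 and 11.6 CPM and COL1A1 was just above the threshold, at 1.36, 1.36 and 1.11 CPM. COL1A2 had reads in replicate 2 alone, and COL3A1 stood at 0.0310 to 0.117 CPM. Of 23 cadherins 6 were expressed, led by CDH2 and CDH3, and of 24 claudins 4, led by CLDN12 and CLDN1.

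Markers of several other cell types were low or silent, those of fibroblasts only in part. None of the endothelial (9), muscle (8), germ cell and pluripotency (8) or milk (9) genes was expressed, against 57.3% of all protein-coding genes. TEK, an endothelial receptor, stood at 1.16, 1.12 and 0.716 CPM and was low through replicate 3. All 9 milk genes were silent, and the caseins CSN1S1, CSN2 and CSN3 had no read. The summed level was 1.70 to 2.27 CPM over the endothelial list, 0.217 to 0.302 CPM over the muscle list and 3.10 to 4.54 CPM over the 12 blood cell genes, of which CD14 alone was expressed, at 2.90, 4.28 and 4.20 CPM. PTPRC, SPI1, MS4A1 and HBB, which define blood lineages, had at most 0.0261 CPM in any library. The fibroblast list held 5 of 10 genes expressed, near the 57.3% of all protein-coding genes, and 0 silent, against 30.6%. Its sum was 193.9 to 377.6 CPM, and DCN, which encodes the proteoglycan decorin, made up most of it with 275, 328 and 157 CPM. PDGFRA and PDGFRB, fibroblast receptors, were low, at no more than 0.613 CPM.

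Some markers of other lineages were expressed while others of the same lists were low or silent, with 1 of 9 liver, 2 of 8 nerve cell, 3 of 6 adipocyte and 1 of 6 melanocyte genes expressed. Of all protein-coding genes, 57.3% were expressed. SERPINA1, a protease inhibitor made in the liver and in inflamed epithelia, stood at 56.2, 49.0 and 21.7 CPM, while the liver genes TTR and CYP3A4 had no read and ALB stood at 0.0565 to 0.117 CPM. MAP2, a microtubule protein of neurons, stood at 28.2, 38.6 and 85.8 CPM, while OLIG2 had no read and RBFOX3 stood at 0.0130 CPM in replicate 2 and at 0 in the other libraries. SNAP25, a synaptic protein, was the other nerve cell gene expressed, at 2.93, 2.54 and 2.58 CPM. FABP4 and PPARG, known from fat cells, were expressed, with 17.0, 5.42 and 27.7 CPM for FABP4 and 28.8, 25.6 and 33.1 CPM for PPARG, while LEP had no read. CIDEC, a lipid droplet protein, was just above the threshold, at 1.19, 1.32 and 1.83 CPM. MITF, a factor of pigment cells, stood at 5.83, 9.56 and 8.05 CPM, while TYR and SOX10 had no read. Of 374 olfactory receptor genes none was expressed and 370 were silent.

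**Figure D2:**
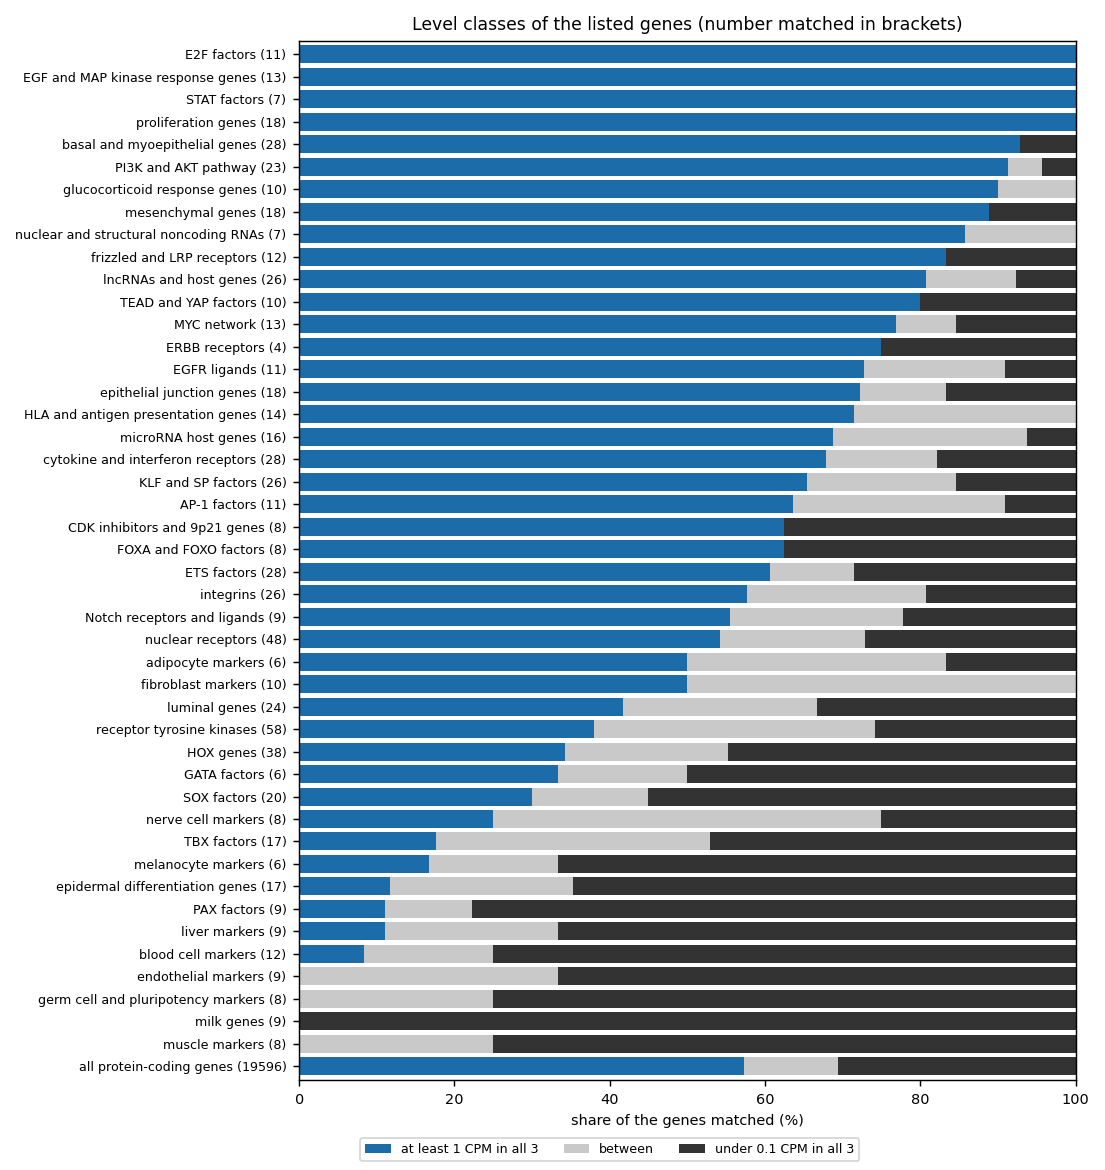
Share of the matched genes of 45 of the 46 lists that were expressed (at least 1 CPM in all 3 shSCR libraries), silent (under 0.1 CPM in all 3) or in between, with the number matched in brackets and all protein-coding genes at the bottom. The E2F, EGF and MAP kinase response and proliferation lists are fully expressed, and the milk list is fully silent.

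Start regions of 4 genes are shown to set out what lay at the start of a highly expressed chaperone gene, the leading keratin, a silent HOX gene and a silent milk gene. They were chosen after the levels were known, and by which genes had an entry. Each is 250 bases before to 50 after the start, from RefSeq on GRCh38.p14, and the start is that of the gene record, which need not be the one used in these cells. Capitals mark CpG dinucleotides. HSPA8 (5519.6, 6014 and 5839 CPM) lies at chr11:123062087-123062386, KRT5 at chr12:52520345-52520644 and CSN2 (no read) at chr4:69965679-69965978, all on the minus strand, and HOXD10 (no read) lies at chr2:176116528-176116827 on the plus strand.
HSPA8: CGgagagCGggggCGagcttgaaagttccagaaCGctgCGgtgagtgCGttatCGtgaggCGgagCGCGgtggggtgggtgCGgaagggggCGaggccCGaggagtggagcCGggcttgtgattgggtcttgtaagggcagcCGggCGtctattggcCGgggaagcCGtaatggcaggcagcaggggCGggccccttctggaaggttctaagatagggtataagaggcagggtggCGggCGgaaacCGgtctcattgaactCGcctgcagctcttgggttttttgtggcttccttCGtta
KRT5: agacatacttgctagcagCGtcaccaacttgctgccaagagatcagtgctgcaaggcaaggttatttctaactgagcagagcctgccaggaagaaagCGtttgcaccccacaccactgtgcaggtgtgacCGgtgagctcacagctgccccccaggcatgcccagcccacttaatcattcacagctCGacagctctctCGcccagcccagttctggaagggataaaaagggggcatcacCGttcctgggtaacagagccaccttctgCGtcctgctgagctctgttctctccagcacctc
HOXD10: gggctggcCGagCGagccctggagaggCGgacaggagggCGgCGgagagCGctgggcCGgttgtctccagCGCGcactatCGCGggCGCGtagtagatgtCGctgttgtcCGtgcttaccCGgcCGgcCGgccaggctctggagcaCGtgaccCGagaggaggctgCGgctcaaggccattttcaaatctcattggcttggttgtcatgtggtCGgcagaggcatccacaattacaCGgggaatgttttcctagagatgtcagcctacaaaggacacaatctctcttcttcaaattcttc
CSN2: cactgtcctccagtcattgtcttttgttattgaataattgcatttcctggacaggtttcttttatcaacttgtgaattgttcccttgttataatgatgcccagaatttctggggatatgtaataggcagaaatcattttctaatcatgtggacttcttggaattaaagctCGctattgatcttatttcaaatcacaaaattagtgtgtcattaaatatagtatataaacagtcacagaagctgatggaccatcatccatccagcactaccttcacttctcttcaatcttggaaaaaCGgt
The HSPA8 window held 24 CpG and the KRT5 window 7, against a median of 12 over all 22114 windows of coding and noncoding genes in the table. Of the silent genes, HOXD10 held 23 CpG and CSN2 held 2. The E-box CACGTG, which reads the same on both strands and holds a CpG, was found in the HOXD10 window and in none of the other 3, against 7.28% of all windows. TATAAA, searched on both strands, was found in the CSN2 window alone, against 12.7% of all windows. Windows were matched to 11208 of the 19596 protein-coding genes, which is 57.2%, and promoters were not compared between expressed and silent genes. The 4 windows shown do not stand for those groups.

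The most abundant messages were those of translation, protein folding, glycolysis and iron storage. EEF1A1, the translation elongation factor, led by mean CPM with 9890, 10052 and 9397 CPM. It was followed by the chaperone HSPA8, by NPM1, which encodes the nucleolar protein nucleophosmin, by TGFBI, and by the glycolytic gene GAPDH. HSP90AA1, HSP90AB1 and HSPD1 (further chaperones), ENO1, PKM and LDHA (glycolysis), FTH1 (ferritin heavy chain), ACTB, CANX, TPT1, RPL4, EEF2 and RACK1 completed the 20 together with KRT5 and S100A6. The 10 most abundant genes held 6.32 ± 0.126% of reads in genes (SD, n = 3) and 901 genes held 50%. The 86 cytosolic ribosomal protein genes held 5.25 ± 0.140%. EEF1A1, NPM1, GAPDH, FTH1 and ribosomal protein genes have processed copies elsewhere in the genome, so part of their reads may have been placed with those or set aside as multimapped.

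Per kilobase, short messages led. S100A6, a small calcium-binding protein, had 2236 ± 151 CPM per kb and FTL, the ferritin light chain, 1968 ± 309 CPM per kb. The ranges of these 2 overlapped. TMSB10, an actin-binding peptide, had 1858 ± 154 CPM per kb. The inflammatory genes S100A9 and SAA1 were in the same 20. S100A9 stood at 870, 634 and 323 CPM, with replicate 3 lowest, and SAA1, which encodes serum amyloid A and has a close copy, stood at 748, 937 and 675 CPM. The metallothionein MT2A stood at 1153, 864 and 837 CPM. With the length of the longest coding transcript in place of all exons, 15 of the 20 genes stayed in the list.

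Reads of mitochondrial genes came to 0.641 ± 0.104% of reads in genes. MT-CO1, a subunit of cytochrome c oxidase, stood at 2454, 1956 and 2988 CPM, or 1599 ± 335 CPM per kb, and MT-CO3, another subunit, at 1923, 1478.5 and 2040.1 CPM, or 2314 ± 378 CPM per kb. The mitochondrial ribosomal RNAs, which the depletion kit is made to remove, were at 0.0426% of reads. Replicate 2 had the lowest level of both oxidase genes and replicate 3 the highest.

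Of 58 receptor tyrosine kinases 22 were expressed, which is 37.9%, and 15 silent, which is 25.9%, against 57.3% and 30.6% of all protein-coding genes. EPHA2, an ephrin receptor, had the highest mean level, 41.8 CPM per kb, from 136, 197 and 189 CPM. ROS1 followed with 188, 296 and 264 CPM, or 31.8 CPM per kb, and the hepatocyte growth factor receptor MET with 124, 151 and 179 CPM, or 21.5 CPM per kb. Replicate 1 was lowest for each of these 3. EGFR (ENSG00000146648.15) stood at 238, 236 and 270 CPM, or 19.8 ± 1.52 CPM per kb. The ranges of EPHA2 and ROS1, of ROS1 and MET, and of MET and EGFR overlapped. Within each library, however, EPHA2 lay above ROS1 and ROS1 above MET in CPM per kb. MET lay below EGFR in replicate 1 and above it in replicates 2 and 3. RYK, a Wnt-binding receptor, lay below EGFR with no overlap, at 16.1 CPM per kb, and AXL, a receptor for GAS6, below RYK at 11.9 CPM per kb. The insulin receptor INSR and the related IGF1R were at 2.48 and 2.65 CPM per kb with overlapping ranges. KIT, RET, ALK, FLT1 and FLT3 had at most 0.0465 CPM in any library.

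Within the EGF receptor family, EGFR lay above ERBB2 and ERBB2 above ERBB3, with no overlap of ranges. ERBB2 stood at 37.5, 33.6 and 37.2 CPM and ERBB3 at 3.80, 2.06 and 3.26 CPM. ERBB4 was silent. Of 11 ligands of these receptors 8 were expressed, against 57.3% of all protein-coding genes. Epigen (EPGN) had the highest level with 208, 176 and 243 CPM, or 115 ± 18.4 CPM per kb, followed by epiregulin (EREG) with 169, 222 and 161 CPM and by TGFA with 69.7, 82.9 and 67.0 CPM. None of the 7 neighbouring pairs among the 8 expressed ligands overlapped in CPM per kb. AREG stood at 13.4, 7.48 and 8.499 CPM. EGF itself, which the medium supplies, was low, at 0.962, 1.07 and 1.53 CPM, and NRG3 had no read.

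**Figure D3:**
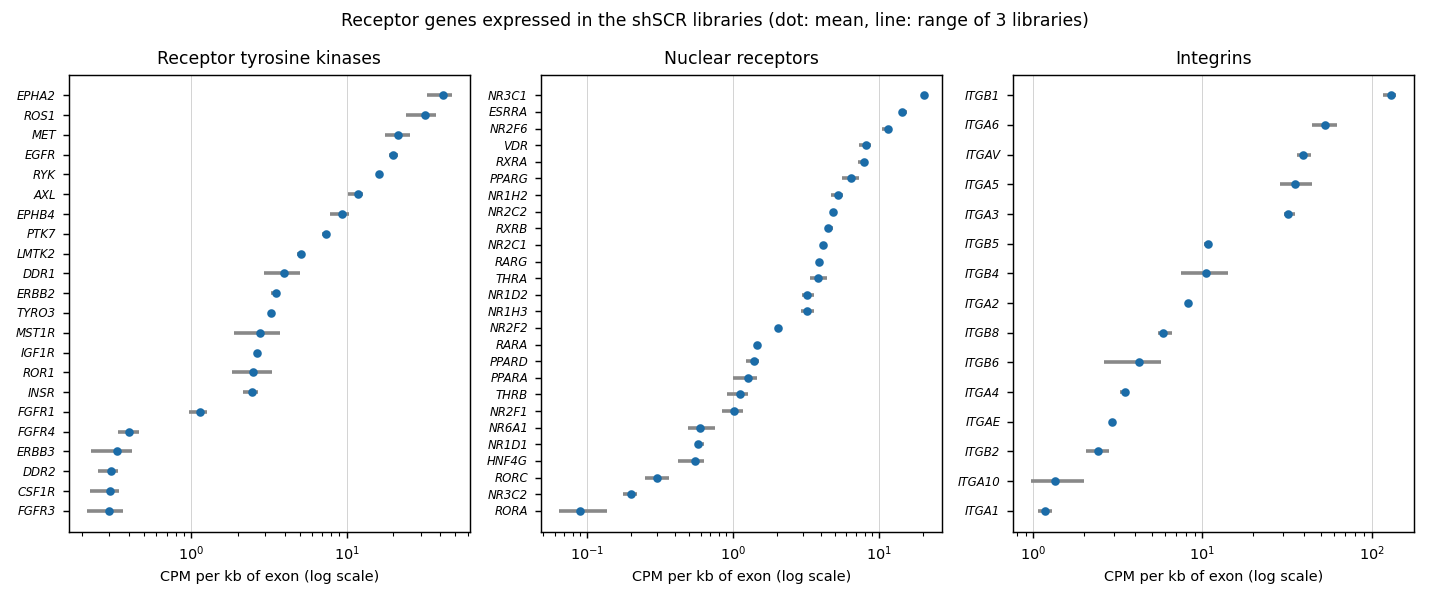
Mean level (dot) and range over the 3 shSCR libraries (line) of the expressed receptor tyrosine kinases, nuclear receptors and integrins, in CPM per kb of exon on a log axis. The leading tyrosine kinases overlap, whereas NR3C1 and ITGB1 stand above the other genes of their panels in every library.

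Nuclear receptors were expressed in 26 of 48 cases, near the 57.3% of all protein-coding genes. NR3C1, the glucocorticoid receptor, led with 185, 187 and 186 CPM, or 20.3 ± 0.0939 CPM per kb, and its range did not overlap that of the next, ESRRA, at 14.5 CPM per kb. Levels of NR3C1 differed by 1.01 times between the highest and the lowest library. VDR, the vitamin D receptor, stood at 41.4, 50.04 and 47.5 CPM and RXRA, the partner of many of these receptors, at 93.7, 79.4 and 89.0 CPM. The neighbours from VDR to RXRB in the order of CPM per kb overlapped. The mineralocorticoid receptor NR3C2 was expressed at 1.46, 1.17 and 1.36 CPM. RARB was silent, while RARG and RARA, the other retinoic acid receptors, stood at 20.6, 20.1 and 19.2 CPM and at 6.62, 7.41 and 6.82 CPM.

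Glucocorticoid response genes were expressed in 9 of 10 cases in the medium with hydrocortisone, against 57.3% of all protein-coding genes. DUSP1, a MAP kinase phosphatase, stood at 245, 262 and 234 CPM and FKBP5, a chaperone of the receptor, at 403, 372 and 387 CPM. TSC22D3 stood at 72.9, 43.1 and 51.2 CPM and PER1, a clock gene, at 58.3, 54.7 and 60.1 CPM. HSD11B1, which regenerates active cortisol, was called low with 1.44, 3.79 and 0.716 CPM, since replicate 3 lay under the threshold. A control without hydrocortisone was not analysed here.

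Among 26 integrin genes 15 were expressed, near the 57.3% of all protein-coding genes. ITGB1, the common beta chain, had 698, 839 and 802 CPM, or 130 CPM per kb, above ITGA6 in every library. ITGAV and ITGA5, chains of receptors for fibronectin and related matrix proteins, had 39.1 and 35.3 CPM per kb with overlapping ranges. ITGA8 and the leukocyte integrin ITGAL had no read. Frizzled and LRP receptors of Wnt signalling were expressed in 10 of 12 cases, above that share, led by FZD6 with 129, 128 and 125 CPM. Notch receptors and ligands were expressed in 5 of 9 cases, near that share, led by NOTCH2 with 303, 298 and 348 CPM and by its ligand JAG1 with 93.8, 82.7 and 98.0 CPM. DLL1 and DLL4 were silent. Cytokine and interferon receptors were expressed in 19 of 28 cases, which is 67.9%, against 57.3% of all protein-coding genes. IFNGR1 had the highest level per kb, 71.4 CPM per kb, and IL6ST, the shared signal chain of the IL-6 family, stood at 426, 546 and 455 CPM. The receptors of lymphocytes IL2RA and IL2RB had no read.

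MYC, the ectopic factor (ENSG00000136997.15), stood at 186, 169 and 207 CPM, or 62.4 ± 6.23 CPM per kb. Counts per gene do not separate its ectopic from its endogenous copies. In the MYC network of 13 genes 10 were expressed, against 57.3% of all protein-coding genes, and none of the 9 neighbouring pairs overlapped in CPM per kb. MYC lay above all others. MLX followed with 18.4 CPM per kb and MAX, the partner of MYC, with 38.3, 41.9 and 39.6 CPM, or 9.02 CPM per kb. The antagonists MXD4, MXI1, MXD1, MNT and MXD3 had 7.48, 5.29, 3.67, 1.09 and 0.617 CPM per kb. MYCN had no read and MYCL was low, at 0.450, 0.287 and 0.377 CPM.

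Of the PI3K and AKT pathway, 21 of 23 genes were expressed, against 57.3% of all protein-coding genes. PIK3CA, the catalytic subunit whose H1047R form was introduced, stood at 126, 166 and 146 CPM, and its counts likewise do not separate the copies. Its regulatory partner PIK3R1 stood at 173, 145 and 135 CPM. AKT1 and AKT2, kinases that PI3K activates, had 16.1 and 5.65 CPM per kb. PIK3CG, the leukocyte form of the catalytic subunit, was silent, and PIK3R2 was low. No expressed gene of this list differed by 1.5 times or more between the libraries, which is near the 6.97% of all expressed protein-coding genes.

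Response genes of EGF and MAP kinase signalling were expressed in 13 of 13 cases, against 57.3% of all protein-coding genes. IER3 stood at 112, 101 and 97.4 CPM, and PHLDA1 at 173, 150 and 145 CPM. The feedback phosphatase DUSP6 stood at 87.0, 60.7 and 54.3 CPM and the early response factor EGR1 at 13.1, 8.14 and 6.88 CPM. Of the 13 genes, 10 were highest in replicate 1, against 34.1% of all expressed protein-coding genes. FOS, another early response factor, was also highest in replicate 1, at 14.9, 7.56 and 8.97 CPM. Among AP-1 factors FOSL2 led with 133, 126 and 147 CPM, or 18.9 CPM per kb, above FOSL1 at 9.46 CPM per kb with no overlap.

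Proliferation genes were expressed in 18 of 18 cases, against 57.3% of all protein-coding genes. None of them differed by 1.5 times or more between the libraries, which is near the 6.97% of all expressed protein-coding genes. MKI67, the antigen Ki-67, stood at 270, 276 and 309 CPM, TOP2A, a topoisomerase of dividing cells, at 697, 680 and 733 CPM, and PCNA, the sliding clamp of replication, at 257, 259 and 250 CPM. All 11 E2F and RB family genes were expressed, against the same 57.3%. E2F1 stood at 27.9, 29.4 and 32.0 CPM and RB1 at 121, 126 and 124 CPM. CDKN1A, which encodes the inhibitor p21, stood at 220, 299 and 273 CPM. CDKN2A and CDKN2B, inhibitors that lie beside each other on the short arm of chromosome 9, had no read on either strand in any library. MTAP, their neighbour, had 3 reads over all 3 libraries. MCF10A is known to lack this region.

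TP73, a relative of TP63, was low, at 0.636, 0.561 and 0.490 CPM. The Hippo pathway effector YAP1 stood at 236, 217 and 222 CPM, and TEAD1, its DNA-binding partner, at 135, 142 and 163 CPM. In the list of TEAD and YAP factors 8 of 10 genes were expressed, against 57.3% of all protein-coding genes, and VGLL1 and VGLL2 had no read. STAT3, a factor of cytokine signalling, stood at 205, 184 and 202 CPM. Of the KLF and SP factors 17 of 26 were expressed, or 65.4%, against 57.3% of all protein-coding genes, with KLF5, a factor of proliferating epithelia, at the top with 123, 103 and 103 CPM. In the ETS family 17 of 28 were expressed, near that share, with EHF, an epithelial member, at the top with 106, 101 and 94.9 CPM, while ELF5 of luminal progenitors, ELF3 and SPDEF were low or silent.

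Developmental transcription factor families were expressed in smaller shares than all protein-coding genes, of which 57.3% were expressed and 30.6% silent. In the PAX family 1 of 9 genes was expressed, PAX9 with 8.22, 6.96 and 5.79 CPM, and 7 were silent, 6 of them with no read. In the TBX list 3 of 17 were expressed, 6 low and 8 silent, with TBX3, a factor of mammary development, at 12.6, 14.6 and 14.1 CPM. SOX genes were expressed in 6 of 20 cases and silent in 11, led by SOX4 with 20.9, 26.0 and 20.3 CPM. SOX10 had no read, and SOX9, a factor of mammary progenitors, was low, with 0.682, 1.00 and 0.980 CPM.

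HOX genes, which set positional identity along the body axis, differed by cluster. Of the 11 genes of the HOXA cluster 7 were expressed, of 10 HOXB genes 1, of 9 HOXC genes 5, and of 9 HOXD genes none, against 57.3% of all protein-coding genes. HOXA5 had the highest level, with 9.77, 14.1 and 14.9 CPM, or 7.57 CPM per kb, above the next, HOXC8, with no overlap. HOXC8, HOXC9, HOXA10, HOXA9 and HOXC13 lay within 3.95 to 3.04 CPM per kb with overlapping neighbours. All 9 HOXD genes had 0 reads in all 3 libraries on the counted strand, and HOXD13 had 1 read on the other strand. HOXD10, whose start region is printed above with its 23 CpG, was among them. The genes MTX2 and LNPK, which flank the HOXD cluster and were looked up after that, stood at 50.8, 50.6 and 47.8 CPM and at 89.9, 92.0 and 85.7 CPM. HOTAIR, a noncoding RNA of the HOXC cluster, stood at 1.12, 1.24 and 1.07 CPM, and HOTAIRM1 of the HOXA cluster at 8.13, 9.05 and 9.23 CPM.

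HLA class I genes were expressed in all 3 libraries, with B2M, their common light chain, at 591, 615 and 558 CPM and HLA-C at 102, 104 and 99.5 CPM. HLA genes are variable and alike, so reads may be split between them. Class II genes divided the libraries. HLA-DRA stood at 10.2, 9.48 and 0.791 CPM, that is 658, 727 and 42 reads. CD74, the class II chaperone, stood at 7.54, 4.94 and 0.754 CPM, HLA-DPA1 at 4.73, 4.37 and 0.546 CPM and HLA-DRB1 at 1.38, 1.68 and 0.207 CPM. CIITA, the transactivator of class II genes, stood at 15.3, 11.4 and 4.88 CPM. Replicate 3 was the lowest for each of these 5 genes. Of the blood cell genes, PTPRC and MS4A1 were at or near 0 in every library, while CD14 was expressed and lowest in replicate 1. The part of blood cells in the class II difference was not tested.

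Noncoding RNAs held a small share of reads with a few very high members. Of 14274 long noncoding genes 714 were expressed, which is 5.00%, and all of them together, expressed or not, held 2.80 ± 0.163% of reads. The class was taken from annotated biotypes, so this share includes short structural RNAs. Among them were ENSG00000283029.1 and RMRP, with means of 10229 and 2776 CPM. The ID ENSG00000283029.1, whose interval coincides with RN7SL1, the RNA of the signal recognition particle, stood at 10855, 9572 and 10259 CPM. RN7SK, which binds the elongation factor P-TEFb, stood at 10189, 9422 and 9620 CPM. Both have many copies in the genome, so these levels are uncertain. RMRP, the RNA of a ribonuclease, stood at 2914, 2121 and 3292 CPM, with replicate 2 lowest. MALAT1 and NEAT1, which stay in the nucleus, stood at 2056, 2396 and 2310 CPM and at 1085, 1123 and 1191 CPM.

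Of 26 listed long noncoding and snoRNA host genes 21 were expressed, against 5.00% of all long noncoding genes. GAS5, a host of snoRNAs, had the highest level per kb of that list, 157 CPM per kb, from 575, 546 and 591 CPM. NORAD stood at 364, 389 and 342 CPM. PVT1, the neighbour of MYC, stood at 27.5, 35.8 and 31.1 CPM. H19, an imprinted transcript, was low, at 0.388, 0.730 and 1.58 CPM, and MEG3, another, had no read. UCA1 stood at 0.248, 3.00 and 1.71 CPM, with replicate 1 lowest.

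Host genes of microRNAs were expressed in 11 of 16 cases, against 5.00% of all long noncoding genes. These counts are of the long host transcripts, and mature microRNAs were not measured. MIR205HG, the host of a microRNA of basal epithelia, stood at 26.8, 25.1 and 67.0 CPM, with replicate 3 far above the others. MIR17HG, host of a cluster known as a MYC target, stood at 38.2, 32.1 and 31.7 CPM. MIRLET7BHG stood at 28.3, 28.4 and 30.1 CPM and MIR22HG at 28.3, 38.9 and 35.5 CPM. MIR200CHG, host of microRNAs that repress ZEB1 and ZEB2, was low, at 0.357, 0.352 and 0.980 CPM, and MIR155HG had no read. The mature sequences from RefSeq that these hosts carry are shown to set out which seeds belong to expressed hosts and which to low or silent ones, with the seed, bases 2 to 8, in capitals.
hsa-miR-205-5p: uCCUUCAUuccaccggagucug
hsa-miR-17-5p: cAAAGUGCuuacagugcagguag
hsa-miR-20a-5p: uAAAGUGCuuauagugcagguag
hsa-let-7a-5p: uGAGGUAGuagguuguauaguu
hsa-let-7b-5p: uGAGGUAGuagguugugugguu
hsa-miR-200c-3p: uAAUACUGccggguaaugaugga
hsa-miR-141-3p: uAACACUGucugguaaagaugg
hsa-miR-155-5p: uUAAUGCUaaucgugauagggguu
Of these, miR-17-5p and miR-20a-5p, both in MIR17HG, share the seed AAAGUGC, and let-7a-5p and let-7b-5p, both in MIRLET7BHG, share GAGGUAG. The microRNAs of the low host, miR-200c-3p and miR-141-3p, differ in their seeds, AAUACUG and AACACUG.

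The 3 cultures differed in their epithelial and mesenchymal genes. Of the 26 expressed basal genes 22 were highest in replicate 3, of the 13 expressed junction genes 11, and of the 10 expressed luminal genes 7, against 33.3% of all expressed protein-coding genes. Of the 16 expressed mesenchymal genes 11 were highest in replicate 2, against 32.6%. Genes that differed by at least 1.5 times between the highest and the lowest library made up 6.97% of the expressed protein-coding genes. They were 15 of 26 basal genes, 7 of 13 junction genes and 7 of 16 mesenchymal genes. None of the 18 proliferation genes differed so, which is near that 6.97%. These counts are a description of 3 libraries, the lists were chosen with earlier results of these data known, and members of a list are not independent of each other.

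FN1, which encodes fibronectin, was the widest of the mesenchymal genes, at 190.4, 754 and 318 CPM, highest in replicate 2 and lowest in replicate 1. SNAI2 stood at 16.7, 35.9 and 22.1 CPM, with the same order. KRT17 stood at 268, 152 and 447 CPM, CLDN7 at 3.71, 3.40 and 11.04 CPM and EPCAM, an epithelial adhesion molecule, at 40.8, 19.8 and 70.0 CPM. These 3 epithelial genes were highest in replicate 3 and lowest in replicate 2. The fibroblast list summed to 306.3, 377.6 and 193.9 CPM in replicates 1, 2 and 3. Of its 5 expressed genes 4 were highest in replicate 2, against 32.6% of all expressed protein-coding genes. These were DCN, PDPN with 12.8, 13.5 and 11.1 CPM, FAP with 12.02, 25.9 and 21.4 CPM and LUM with 4.90, 7.72 and 2.43 CPM, while COL1A1 was highest in replicate 1 by a narrow margin. The other 5 genes of the list were low, and of these COL1A2 was at 0 in replicates 1 and 3. The part of fibroblast markers in the differences between the libraries was not tested.

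**Figure D4:**
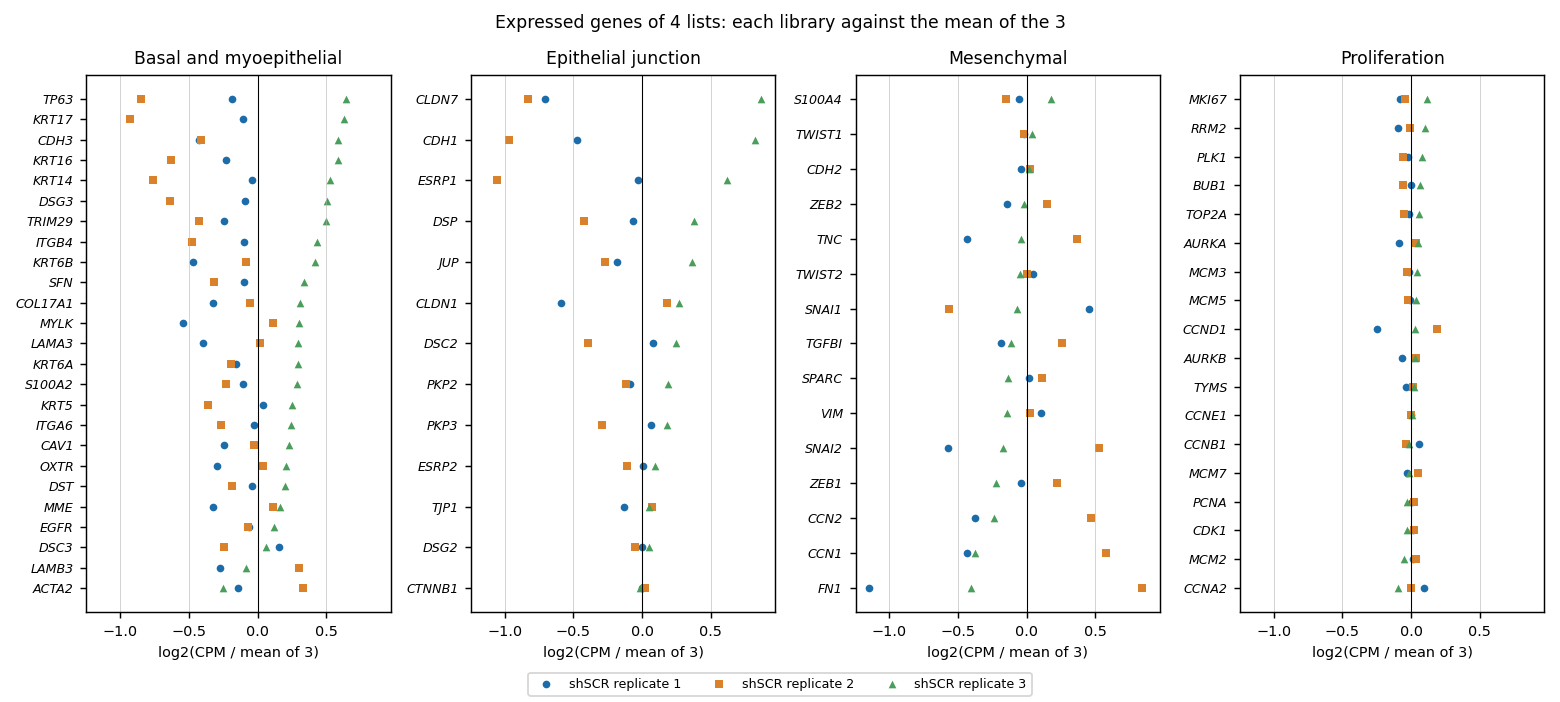
log2 ratio of each shSCR library to the mean of the 3, for expressed genes of 4 lists. Of those drawn, replicate 3 (triangles) lies farthest to the right for 22 of 25 basal and 11 of 13 junction genes, replicate 2 (squares) for 10 of 15 mesenchymal genes, and the proliferation genes stay close to 0.

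Over all 12574 expressed genes the median biological coefficient of variation, which edgeR estimates as the spread between replicates beyond counting error, was 9.53%. It was 15.6% in the basal list, 15.5% in the junction list and 12.7% in the mesenchymal list, and 7.15% in the proliferation list. Some shorter lists had larger medians, among them 23.2% over the 5 expressed fibroblast genes and 24.3% over the 2 expressed nerve cell genes. The lists also differed in level, with a median of 217 CPM over the proliferation genes. It was 67.1, 26.3 and 29.8 CPM over the matched basal, junction and mesenchymal genes. Over genes with a mean of at least 10 CPM the median coefficient was 8.27%. The 10 most variable genes with a mean of at least 10 CPM were DHRS3, IL1R2, SULT1E1, DKK1, FABP4, FGFBP1, CXCL8, FBXO32, FN1 and CXCL5, with 41.3 to 77.2%. DHRS3, a retinal reductase, stood at 1.46, 34.6 and 24.5 CPM, so that replicate 1 lay far below the others. IL1R2, a decoy receptor of interleukin 1, stood at 236, 94.8 and 37.7 CPM, highest in replicate 1. The chemokine CXCL8 stood at 80.5, 264 and 79.5 CPM and CXCL5 at 9.21, 24.5 and 6.88 CPM, both highest in replicate 2. At the other end were GON4L, AP2S1, TRAF7, CKS1B, PRKX, OPN3, PPHLN1, LARS2, ZBTB11 and ABL1. These 10 lay within 6.42 to 6.44%, at means of 78.4 to 93.7 CPM, so which genes were named rests on very small differences. LARS2, a mitochondrial tRNA synthetase, stood at 92.2, 91.9 and 92.0 CPM.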

How the data were processed

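Total RNA was sequenced with strand information after ribosomal RNA had been depleted, as read pairs of 75 bases, per the labels' protocols. The authors deposited counts per gene, as whole numbers of reads, for every library, in the layout that STAR writes. In the submitters' processing notes the builds GRCh37 and hg19 are listed beside the tools DESeq, R 3.3.1, edgeR 3.14.0 and STAR 2.5.2a, without roles. No annotation release and no alignment setting is named in the sources at hand.

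The reverse-strand column was used, since 94.9 to 95.0% of stranded reads lay there. Summary lines that name no gene were left out of library sizes: 13.1 to 14.0% of read pairs had no feature, 2.57 to 2.66% were ambiguous, 5.14 to 5.36% multimapped and 2.95 to 4.34% unmapped. Of 60308 IDs, 41299 had a symbol, and they held 97.6% of the reads in genes. Symbols, biotypes and exon lengths came from the gene name table and GENCODE 29. CPM and CPM per kb were computed in Python 3.11.15 with pandas 2.3.3, and the spread with edgeR 4.0.16 in R 4.3.3 (TMM scaling, tagwise dispersion). That step was tested on simulated data. Figures were drawn with matplotlib 3.10.9.

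The libraries, the 46 lists (703 genes, of which 692 were matched and 11 are not analysed here) and the naming rule were chosen with earlier results of these data known. The rule named list members by class and level, the 20 leading protein-coding genes by CPM and by CPM per kb, the 10 leading long noncoding genes, and the 10 most and 10 least variable genes. The replicate libraries differed from each other beyond counting noise, with a chi-square of 25.2 to 35.1 per degree of freedom, so none was counted as a copy. A paired sign permutation of 3 libraries cannot go below p = 0.25, and no test was made. Alternatives were other thresholds, TMM scaling, unstranded counts, leaving out each library and, added after the data were seen, the length of the longest coding transcript. A few genes of the lists are counted in them but are not reported here by name or drawn.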

Additional observations from a re-analysis of the deposited data

Results flagged for a closer look

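Reads on the strand opposite to the counted one, which the results above use only for the reads of the HOXD, CDKN2A and CDKN2B genes, passed a limit in 320 of 19596 protein-coding genes. These genes had at least 1 CPM on that strand in all 3 libraries and more than 10 times their own level on the counted strand, where a count of 0 would allow at most 0.0565 CPM. BEST1 led them with 3502, 2967 and 2675 CPM on the opposite strand, against 2.26, 2.45 and 2.53 CPM on its own. FTH1 stood at 3563, 3003 and 2727 CPM on its counted strand, near those opposite-strand values in each library. Whether the opposite-strand reads belong to other, overlapping genes was not tested. The next after BEST1 were ATG10 with 804, 813 and 786 CPM, MRNIP with 393, 425 and 490.1 CPM and MMACHC with 415, 421 and 461 CPM on the opposite strand. The levels of the 320 genes would differ with unstranded counts. Of the 765 listed or otherwise named genes, 21 with a mean of at least 1 CPM moved by more than 1.5 times with unstranded counts.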

How the results depend on the processing

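The number of expressed protein-coding genes was 11229, and 9731 to 11775 under the other thresholds, TMM scaling and unstranded counts, and 11287 to 11298 with a library left out. Silent genes numbered 6003, 5273 to 7435 under all settings but the strictest, and 3631 when no read in any library was required. The number of listed genes expressed was 394, and 327 to 427 under all alternatives. A threshold of 5 CPM moved the count of expressed genes by more than 1.5 times in 10 of 46 lists and one of 1 CPM per kb in 9, among them the HOX, GATA and fibroblast lists both times. A threshold of 0.5 CPM moved the endothelial, nerve cell, germ cell and PAX lists, unstranded counts moved the melanocyte, germ cell and PAX lists, a mean of at least 1 CPM the endothelial and germ cell lists, and leaving out replicate 3 the endothelial list. The count of 0 expressed thus became 1 in the endothelial list at 0.5 CPM, at a mean of 1 CPM and without replicate 3. In the germ cell and pluripotency list it became 1 at 0.5 CPM and at a mean of 1 CPM, and 2 with unstranded counts. TMM scaling moved none, and its factors were 0.990 to 1.01. The median level of expressed listed genes, 36.1 CPM, stayed at 35.0 to 37.5 CPM. The median coefficient of variation, 9.53%, was 8.27 to 10.3% under all alternatives. The counts of basal and junction genes highest in replicate 3 were 22 and 11 with TMM scaling and with unstranded counts, and that of mesenchymal genes highest in replicate 2 was 11 and 10. No paired analysis was possible because there is 1 group and no test. Nuclear protein-coding genes held 93.8 to 94.3% of reads and mitochondrial genes 0.589 to 0.704% under all alternatives. Depth limits the silent genes, since 0.1 CPM stands for 5.31 to 7.67 reads.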
